A study of Mus musculus with 3 samples.

Results

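Izumo1r and Gpr83 are neighbouring surface receptor genes on mouse chromosome 9 that are both known as genes of regulatory T cells. They were chosen by name and position, as 2 of the 55536 mouse genes measured, and they carry 8 of the 141862 annotated transcripts. Polyadenylated RNA was sequenced in 3 libraries of mouse regulatory T cells. The labels give the strain as Foxp3CreERT2 x Rosa26YFP and the animal as male and 4 months old. The labels call the libraries technical replicates 1, 2 and 3 of biological replicate 1 and trace the cells to a bone marrow hematopoietic origin. All 3 libraries form 1 group, so no condition is compared, and the libraries are named by their replicate number. No source used here gives the sorting gate, any tamoxifen treatment or the number of animals behind each library. Every p-value therefore measures only the spread between these libraries.

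Izumo1r, also called Juno or Folr4, belongs by sequence to the folate receptor family and is held in the outer membrane by a glycosylphosphatidylinositol (GPI) anchor. On the mouse egg it is the receptor for the sperm protein Izumo1, and on T cells its surface protein has long been used to mark regulatory T cells. Gpr83 is a G protein-coupled receptor that was first found as a glucocorticoid-induced gene in a mouse T cell line. It is also present in brain, the peptide PEN from the precursor proSAAS has been reported as its ligand, and its mRNA belongs to the regulatory T cell signature.

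In the GENCODE M21 annotation of mouse build mm10, Gpr83 (ENSMUSG00000031932.14) lies on the plus strand at chr9:14860210-14870789. Izumo1r (ENSMUSG00000031933.17) lies on the minus strand at chr9:14885814-14903949. The genes are convergent, with their 3′ ends 15024 bases apart and no annotated gene between or overlapping them. The transcript names used below are those of the annotation.

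The forms of Gpr83 differ in exon 2, and those of Izumo1r differ in where the coding sequence ends, so the sequences at these points are shown first. Gpr83-201, with 4 exons and 423 codons, holds exon 2 at chr9:14864772-14864897, which is 126 bases or 42 whole codons. Gpr83-202, with 3 exons and 381 codons, joins exon 1 directly to exon 3. In the first line exon 2 is in capitals, with 30 bases of the neighbouring exons on either side in lower case, and the second line is the junction without it, both 5′ to 3′ on the plus strand.
Gpr83-201 around exon 2: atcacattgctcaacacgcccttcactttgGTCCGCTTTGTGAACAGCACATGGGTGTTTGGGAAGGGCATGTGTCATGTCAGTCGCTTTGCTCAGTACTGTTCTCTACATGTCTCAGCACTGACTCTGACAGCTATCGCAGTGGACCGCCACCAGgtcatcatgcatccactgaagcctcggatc
Gpr83-202 junction: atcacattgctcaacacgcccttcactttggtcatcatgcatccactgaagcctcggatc

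Izumo1r-201, the form with 244 codons, ends its coding sequence in a stretch at chr9:14900359-14900624. Izumo1r-202, with 172 codons, and Izumo1r-203, with 173 codons, skip that exon and end in exons nearer to Gpr83. The last coding stretch of Izumo1r-202 is at chr9:14886295-14886344 and that of Izumo1r-203 at chr9:14894070-14894122. In the 3 lines below the last coding stretch, without its stop codon, is in capitals and the 30 coding bases before it, which all 3 forms share, are in lower case, written 5′ to 3′ on the minus strand.
Izumo1r-201 coding end: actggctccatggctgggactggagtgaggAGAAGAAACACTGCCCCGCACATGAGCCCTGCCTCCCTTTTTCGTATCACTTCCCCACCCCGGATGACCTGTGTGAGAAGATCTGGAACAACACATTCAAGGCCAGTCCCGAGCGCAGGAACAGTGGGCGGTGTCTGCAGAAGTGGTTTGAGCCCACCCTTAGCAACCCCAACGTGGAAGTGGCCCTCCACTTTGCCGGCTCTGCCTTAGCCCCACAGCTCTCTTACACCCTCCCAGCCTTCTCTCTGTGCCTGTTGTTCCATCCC
Izumo1r-202 coding end: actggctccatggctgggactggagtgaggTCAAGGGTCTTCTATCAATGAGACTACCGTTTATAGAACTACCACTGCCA
Izumo1r-203 coding end: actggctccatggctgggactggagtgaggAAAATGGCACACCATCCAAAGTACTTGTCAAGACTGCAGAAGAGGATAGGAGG
The forms Izumo1r-202 and Izumo1r-203 thus keep 50 and 53 coding bases after the shared stretch, where Izumo1r-201 has 266. The C-terminal end of a GPI-anchored protein carries the signal for the anchor, and the 266 bases hold that end in Izumo1r-201. All transcript sequences are those of GENCODE M21.

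The start of Gpr83 is shown because both coding forms begin there, 44 bases apart. The window runs from 250 bases before to 50 bases after the RefSeq start of the gene, at chr9:14859960-14860259 on the plus strand of GRCm38, and the capitals mark its only match to TATAAA.
Gpr83 start window: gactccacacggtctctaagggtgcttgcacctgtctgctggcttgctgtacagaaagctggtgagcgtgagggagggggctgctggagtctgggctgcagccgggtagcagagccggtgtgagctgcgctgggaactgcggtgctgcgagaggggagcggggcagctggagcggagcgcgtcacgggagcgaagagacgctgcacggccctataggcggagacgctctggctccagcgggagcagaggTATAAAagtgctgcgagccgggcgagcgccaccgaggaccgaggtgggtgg
The match begins 45 bases before the annotated start of Gpr83-202 and 1 base before that of Gpr83-201. TATAAA or its reverse complement TTTATA stood in 13.6% of the 32851 mouse start windows of the same length. The window of Izumo1r, whose RefSeq start lies 165 bases downstream of the start of Izumo1r-201 in GENCODE, held none. The motifs GTAAACA, TGACGTCA and CCGGAAGT, searched on both strands, stood in 3.65%, 1.79% and 3.89% of the windows and in neither of these.

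Izumo1r was among the most abundant mRNAs of these cells. It reached 1315 TPM (a level corrected for transcript length and library size) in library 1, 1434 TPM in library 2 and 1188 TPM in library 3. The level averaged 1313 ± 123 TPM (SD, n = 3), which placed Izumo1r 89th by mean among 22028 protein-coding genes. Its rank in the single libraries was 99, 79 and 98. The expected counts behind these levels were 11359, 10506 and 7891 in libraries 1, 2 and 3. They made up 0.122% (95% Wilson interval 0.120 to 0.124) of the counts of library 1, 0.114% (0.112 to 0.117) of library 2 and 0.0953% (0.0932 to 0.0974) of library 3. These intervals cover counting error only, since reads amplified by PCR are not independent molecules.

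Gpr83 was present at a lower level. It had 101 TPM in library 1, 129.8 TPM in library 2 and 169.7 TPM in library 3, with a mean of 134 ± 34.4 TPM (SD, n = 3). Its rank was 1265, 1088 and 779 in libraries 1, 2 and 3, and 1019 by the mean. Its expected counts were 2421, 2669 and 3211, or 0.0260% (0.0250 to 0.0271), 0.0290% (0.0280 to 0.0302) and 0.0388% (0.0374 to 0.0401) of the counts of libraries 1, 2 and 3. Of all protein-coding genes, 45.9% were detected, meaning 1 TPM or more in every library, and the median of those 10120 genes was 20.1 TPM. Both genes were detected, Izumo1r above 99.1% and Gpr83 above 89.9% of the detected genes. In bulk RNA, fewer cells with a transcript and less transcript per cell cannot be told apart.

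**Figure D1:**
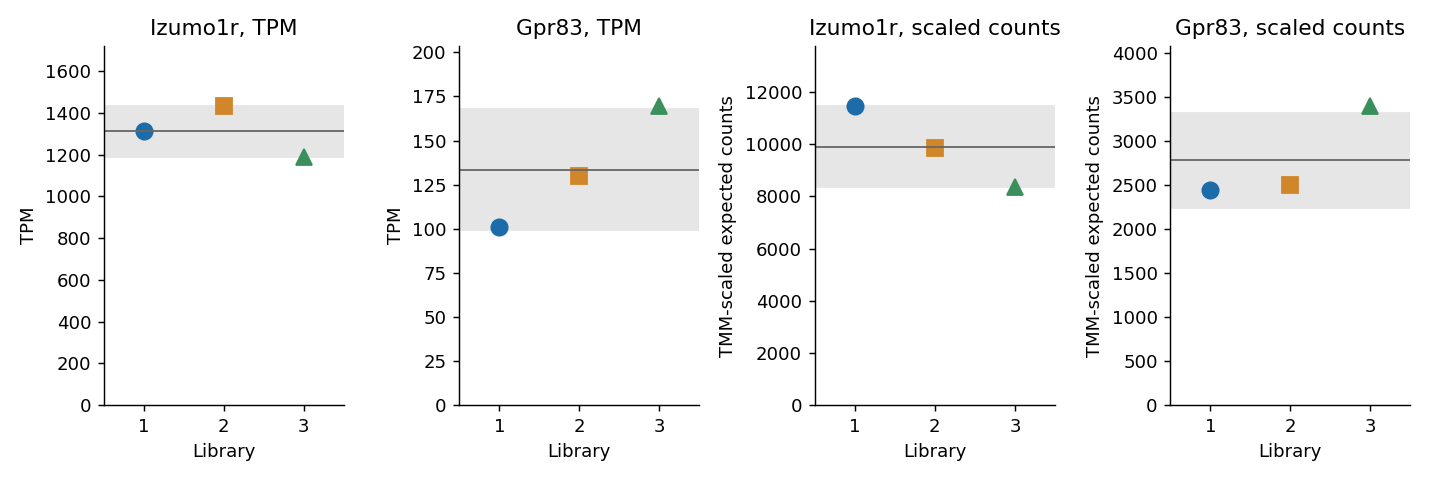
TPM of Izumo1r and Gpr83 in libraries 1, 2 and 3, on separate linear axes that start at 0; the line is the mean and the grey band 1 SD on either side. Izumo1r is highest in library 2 and lowest in library 3, while Gpr83 is highest in library 3 at 169.7 TPM and lowest in library 1 at 101 TPM.

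The protein-coding genes whose levels over the 3 libraries lay nearest to those of each member were found by Euclidean distance in log2(TPM + 1). For Izumo1r they were H3f3b, a replacement histone gene, at a distance of 0.19, Rps15, a ribosomal protein gene, at 0.19, and Cd3e, a chain of the T cell receptor complex, at 0.20. Izumo1r mRNA thus stood at the level of Cd3e, which averaged 1398 ± 50.5 TPM (SD, n = 3). For Gpr83 they were the zinc finger gene Zfp638 at 0.13, the kinase gene Riok3 at 0.15 and the spliceosome GTPase gene Eftud2 at 0.17. The distances describe 3 libraries and carry no test.

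The libraries were 8284324 to 9299013 rounded counts deep. Of 13071 genes with 30 or more counts, 54.3% differed among the libraries beyond counting error (chi-square test of homogeneity on TMM-scaled totals, Benjamini-Hochberg adjusted p under 0.05), so that such a difference was the common case. The pan T cell markers were detected in 8 of 8 cases and summed to 13093, 12569 and 11386 TPM in libraries 1, 2 and 3. The 6 B cell markers summed to 2338, 1825 and 1970 TPM, of which Ighm made up most. The 6 erythroid markers summed to 1685, 9.02 and 1497 TPM, so library 2 stood apart. No source used here says if 1 RNA pool gave all libraries, so technical and biological spread cannot be told apart in the SDs. Without library 2, Izumo1r averaged 1252 TPM and Gpr83 135 TPM, and their spreads below were 1.37-fold and 1.40-fold. The 6 myeloid markers summed to 32.5, 15.7 and 37.5 TPM. Of the other cell types in which the members are known, 0 of 5 oocyte markers and 1 of 5 neural markers, Syp at 6.27 TPM, were detected, with the oocyte genes Zp3, Bmp15 and Nobox and the neuronal gene Snap25 at 0.

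Izumo1r differed among the libraries. Its TMM-scaled counts were 11466 in library 1, 9858 in library 2 and 8363 in library 3 (chi-square 470, 2 degrees of freedom, adjusted p = 7.2e-101). Library 1 exceeded library 2 by 1.16-fold (95% interval 1.13 to 1.19) and library 3 by 1.37-fold (1.33 to 1.41), and library 2 exceeded library 3 by 1.18-fold (1.14 to 1.21). The order by scaled counts was not that by TPM, where library 2 was highest. Of 204 genes with total counts within a factor of 2 of those of Izumo1r, 43.1% had a larger ratio of the highest to the lowest library, and their median ratio was 1.32.

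Gpr83 differed among the libraries through library 3. Its scaled counts were 2444 in library 1, 2504 in library 2 and 3403 in library 3 (chi-square 202, 2 degrees of freedom, adjusted p = 4.2e-43). Under this scaling, libraries 1 and 2 did not differ beyond counting error at this depth, with a ratio of 0.976 (95% interval 0.923 to 1.03). Their relation depended on the scaling. As a share of unscaled counts, library 2 lay above library 1 and their Wilson intervals did not overlap. With the bins of length used below, library 1 lay above library 2. Against library 3, the ratio was 0.718 (0.681 to 0.757) for library 1 and 0.736 (0.699 to 0.775) for library 2. Without library 3 the highest library was 1.02-fold above the lowest and the call was lost, at an adjusted p of 0.645. Of 1015 genes within a factor of 2 of its counts, 30.2% had a larger spread than the 1.39-fold of Gpr83, and their median was 1.26-fold.

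Genes of similar length moved with Izumo1r, and less clearly with Gpr83. By its mean transcript length, Izumo1r fell in a bin of 654 genes of 1085 to 1253 bases. Their median log2 deviation from the mean of the libraries was 0.19, -0.09 and -0.14 in libraries 1, 2 and 3, against 0.21, -0.01 and -0.24 for Izumo1r. The 653 genes of 2981 to 3249 bases had medians of -0.11, 0.05 and 0.06, against -0.19, -0.15 and 0.29 for Gpr83. The medians thus set library 1 apart in that bin, while Gpr83 set library 3 apart. With counts scaled within such bins of length, the highest library exceeded the lowest by 1.14-fold for Izumo1r (adjusted p = 4.8e-17). For Gpr83 the excess was 1.35-fold (adjusted p = 1.2e-29). For Izumo1r library 2 was then highest and library 3 lowest, and for Gpr83 library 3 was highest and library 2 lowest. By TMM-scaled counts without the bins, 6 of the 8 pan T cell markers were highest in library 1, as Izumo1r was. Cd4 was highest in library 2 and Cd5 in library 3. The 4 myeloid markers tested, like Gpr83, were highest in library 3, though only 2 of them differed among the libraries. Of all genes that differed, 44.1% were highest in library 1 and 32.0% in library 3. The part of these in the spread of the members was not tested.

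The ratio of Izumo1r to Gpr83 does not depend on the library total, since both are read from the same library. By TPM, Izumo1r exceeded Gpr83 by 13.0-fold in library 1, 11.1-fold in library 2 and 7.00-fold in library 3, with a mean of 10.4 ± 3.06 (SD, n = 3). By expected counts, which are not corrected for length, the ratio was 4.69, 3.94 and 2.46. The count ratio in library 1 was 1.19 times that in library 2 (95% interval 1.12 to 1.27) and 1.91 times that in library 3 (1.80 to 2.03), and that in library 2 was 1.60 times that in library 3 (1.51 to 1.70). The ratio was thus lowest in library 3 by every measure taken.

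The ratio differed among the libraries (chi-square 493, 2 degrees of freedom, adjusted p = 4.1e-105 over 6932 pairs). Of those pairs of adjacent protein-coding genes, 50.4% differed in ratio by the same test, so a call alone did not set this pair apart. Of the 3751 pairs with 300 or more counts in both genes, the highest ratio exceeded the lowest by a median of 1.41-fold, and 14.3% varied more than the 1.91-fold of Izumo1r and Gpr83. With counts scaled within bins of length, a setting chosen after seeing the data, the ratio was 3.80, 4.33 and 2.81, so that library 2 was then highest and the range was 1.54-fold. Without library 3 the range was 1.19-fold (adjusted p = 1.8e-07).

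**Figure D2:**
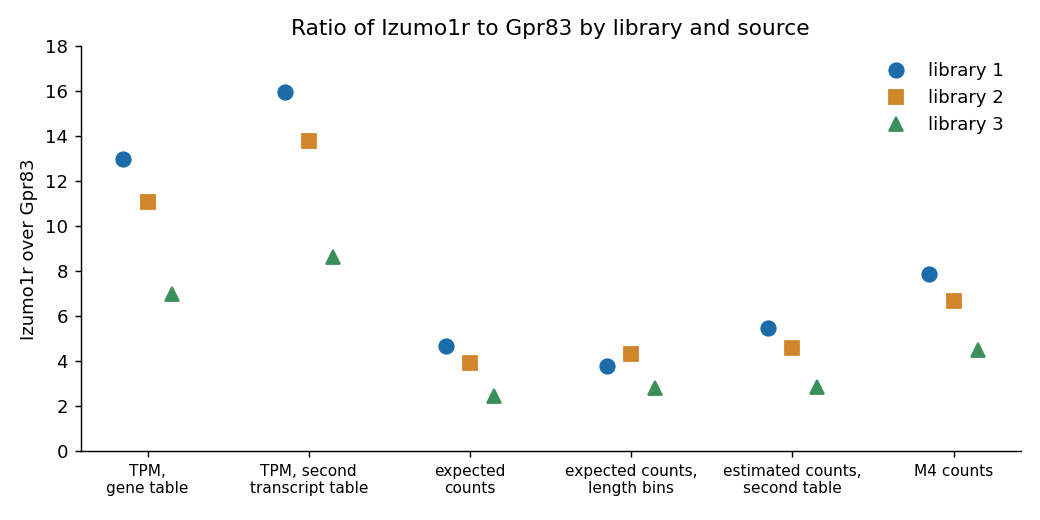
Ratio of Izumo1r to Gpr83 in each library (circle, square and triangle for libraries 1, 2 and 3), on a linear axis from 0, by the source of the values. Library 3 is lowest in every source, at 7.00 by TPM and 2.46 by expected counts of the gene table.

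Both members of the pair were abundant, which few neighbouring genes were. At or above the mean TPM of Gpr83 stood 4.63% of protein-coding genes, 1019 in all. Of 21917 pairs of adjacent protein-coding genes, 114 (0.520%) had both members at or above that level. Of the 5214 convergent pairs the count was 21 (0.403%). The level that defines these counts is that of Gpr83 itself, so they describe the place of the pair and carry no test.

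The other genes around the pair were all below Gpr83 in mean TPM. The window of 250 kb on either side of the genes held 22 annotated genes, 10 of them protein-coding. Of the other 8 protein-coding genes, 3 were detected, a count to set beside the 45.9% detected among all protein-coding genes. These were Ankrd49, an ankyrin repeat gene, at 25.5 ± 4.59 TPM, the DNA break repair nuclease gene Mre11a at 20.9 ± 7.03 TPM and the membrane channel gene Panx1 at 13.9 ± 2.16 TPM (SD, n = 3 each), of which Ankrd49 and Mre11a stood above the median of detected genes. The mean of Gpr83 was 5.25-fold above that of Ankrd49. The median of the 8 genes was 0.192 TPM.

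The remaining 5 were at or near 0. Piwil4, which acts in piRNA silencing of the germ line, averaged 0.320 TPM, the fucosyltransferase gene Fut4 0.0633 TPM and Amotl1 0.0433 TPM. Hephl1 and 1700012B09Rik were at 0 in every library. Of the 12 genes of other types, 1 was detected, the pseudogene Gm16379 at 1.61 ± 0.477 TPM (SD, n = 3), which rests on at most 2.46 expected counts a library. The share detected over all genes of such types was not computed, so this count has no background beside it. Of the 3 detected protein-coding neighbours, only Panx1 differed among the libraries (adjusted p = 5.8e-04), with scaled counts highest in library 1. The share that differed over all genes tested was 54.3%. Neither Ankrd49 (adjusted p = 0.757) nor Mre11a (adjusted p = 0.432) passed the test. Ankrd49 and Mre11a overlap at their starts on opposite strands, so reads there may be split between them.

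**Figure D3:**
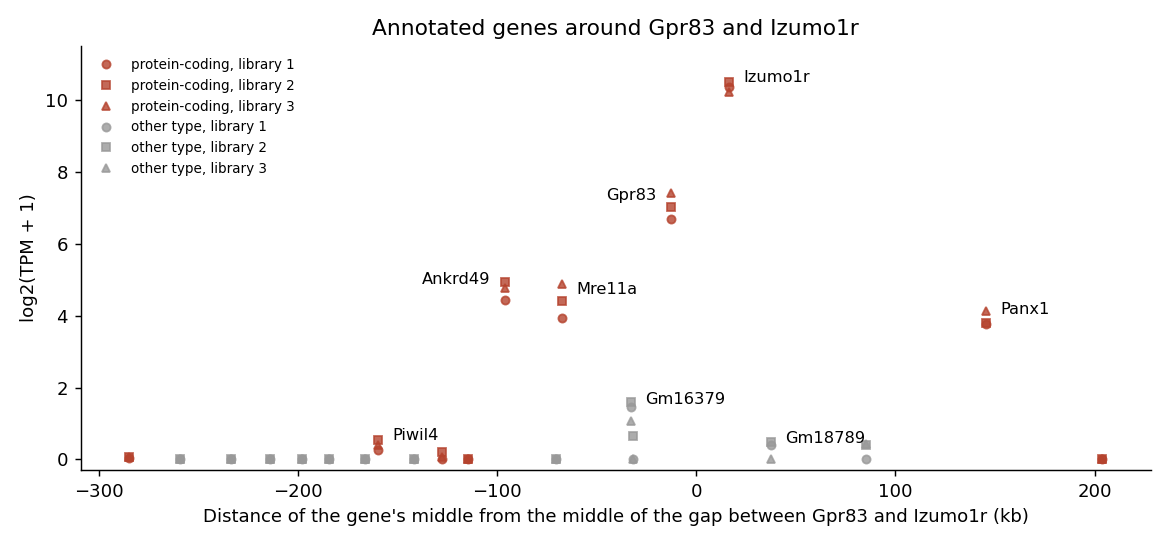
Level of each annotated gene, as log2(TPM + 1), against the distance in kb of its middle from the middle of the gap between Gpr83 and Izumo1r; each point is 1 library and the colours separate protein-coding from other genes. Izumo1r and Gpr83 stand above the 3 other detected protein-coding genes, Ankrd49, Mre11a and Panx1.

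Izumo1r was read mainly as 1 of its 5 annotated forms. Izumo1r-201, with the full coding end shown above, took 85.61%, 84.83% and 86.45% of the gene's TPM in libraries 1, 2 and 3. Izumo1r-202, with the distal end, took 7.61%, 8.37% and 7.04%. The forms Izumo1r-204, with 190 codons, and Izumo1r-205, with 143 codons in the annotation, averaged 3.52% ± 0.640 and 2.29% ± 0.654, and Izumo1r-203 averaged 0.893% ± 0.0896 (SD, n = 3 each). Transcript shares are assignments of shared reads by the authors' quantifier, not direct counts of molecules.

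The distal ends reach toward Gpr83. Izumo1r-202 ends 14209 bases past the end of Izumo1r-201, which leaves 15024 bases to the end of Gpr83, and Izumo1r-203 ends 6974 bases past it. Together these forms took 8.55%, 9.32% and 7.83% of the TPM of Izumo1r in libraries 1, 2 and 3. In the second transcript table, made from the same reads by another method, they took 10.1%, 10.8% and 9.45%. That table gave Izumo1r-201 a mean share of 75.5% and put more on the short forms Izumo1r-204 and Izumo1r-205, at 7.28% and 7.06%.

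Gpr83 was read mainly as the form without exon 2. Gpr83-202 took 71.13%, 67.63% and 59.75% of the gene's TPM in libraries 1, 2 and 3, a mean of 66.2% ± 5.83 (SD, n = 3). Gpr83-201, with exon 2, took 27.03%, 29.41% and 37.00%, a mean of 31.1% ± 5.21. The retained-intron form Gpr83-203 took 1.84%, 2.96% and 3.24%. Between the coding forms alone, the expected counts gave the form with exon 2 a share of 31.9% (95% Wilson interval 30.1 to 33.9) in library 1, 34.9% (33.1 to 36.8) in library 2 and 43.3% (41.6 to 45.1) in library 3. The interval of library 3 lay above those of the other libraries. These intervals treat assigned counts as reads and leave out the uncertainty of the assignment, so they are too narrow. In TPM the shares were 27.5%, 30.3% and 38.2%, and 28.5%, 34.2% and 39.7% by the second transcript table. The forms also differ in their start by 44 bases and in their 3′ end, so these shares do not rest on reads of the exon 2 junctions alone.

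By TPM the form without exon 2 had 72.0, 87.8 and 101 TPM in libraries 1, 2 and 3, and the form with it had 27.4, 38.2 and 62.8 TPM. Both forms were thus highest in library 3, and the form with exon 2 more so.

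Transcript composition differed among the libraries for both genes, as it did for 76.9% of 8795 genes tested (chi-square test of homogeneity of rounded transcript counts, adjusted p under 0.05). For Gpr83 the chi-square was 97.1 on 4 degrees of freedom (adjusted p = 2.1e-19), or 24.3 per degree of freedom. That value was 43.5 without library 2, 20.8 without library 1 and 7.09 without library 3 (adjusted p = 0.00168), and the call held in each case. For Izumo1r it was 40.5 on 8 degrees of freedom (adjusted p = 5.4e-06), and without library 2 the call was lost (adjusted p = 0.120). The share of the leading form ranged over 1.62 percentage points among the libraries for Izumo1r, and 94.7% of 6968 genes had a larger range. Those genes had 300 or more counts and were not matched in depth, so the comparison does not separate stability from depth. For Gpr83 the range was 11.4 percentage points, close to the median of 10.1.

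**Figure D4:**
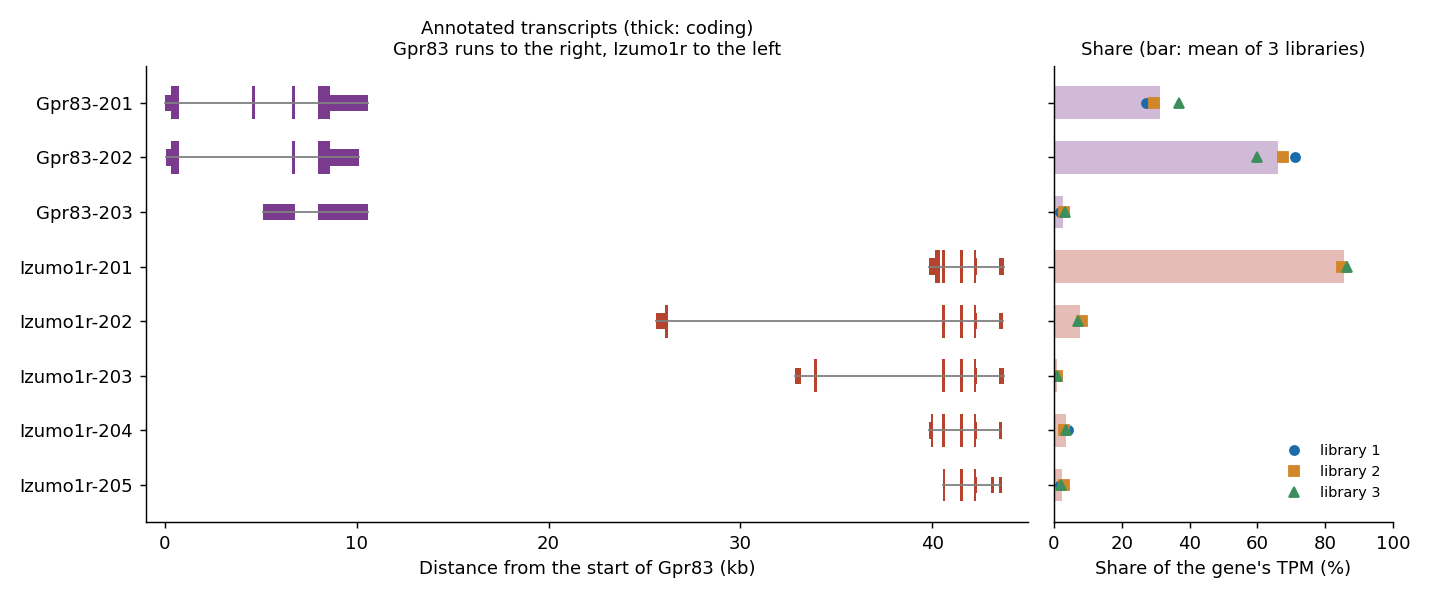
Left, the annotated transcripts of Gpr83 and Izumo1r by distance in kb from the start of Gpr83, with exons as boxes (thicker where coding). Right, the share of the gene's TPM that each takes, as the mean (bar) and the 3 libraries (points); Izumo1r-201 takes most of Izumo1r, and Gpr83-202, without exon 2, most of Gpr83.

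The whole-number gene counts, which were made with the older GENCODE M4 annotation, gave Izumo1r more reads. They held 20377, 18487 and 14680 counts for Izumo1r in libraries 1, 2 and 3, which is 1.79, 1.76 and 1.86 times the expected counts. For Gpr83 they held 2591, 2770 and 3267, or 1.07, 1.04 and 1.02 times the expected counts. Relative to the median of 10091 genes, the mean log2 ratio of M4 counts to expected counts, both scaled to their totals, was 0.58 for Izumo1r, with 13.5% of genes higher, and -0.22 for Gpr83, with 60.8% higher. The ratio of Izumo1r to Gpr83 was 7.86, 6.67 and 4.49 in those counts. The second transcript table held 1.35, 1.33 and 1.36 times the expected counts for Izumo1r and 1.16, 1.15 and 1.17 times for Gpr83. What makes the tables differ for Izumo1r was not tested.

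Within a list of 19 regulatory T cell signature genes, all of which were detected at a median of 217 TPM, Izumo1r had the highest mean TPM. Next were Tnfrsf4 at 1074 ± 45.8 TPM and Tnfrsf18 at 689 ± 62.7 TPM (SD, n = 3 each), both genes of costimulatory receptors. Gpr83 was in place 13, between the ectonucleotidase gene Nt5e at 198 ± 52.1 TPM and the lectin-like receptor gene Klrg1 at 131 ± 19.9 TPM (SD, n = 3 each), and its range over the libraries overlapped those of both. The lowest was Entpd1, an ectonucleotidase gene, at 34.4 ± 3.50 TPM. Foxp3, which encodes the factor that defines the lineage, had 27.6, 43.7 and 47.1 TPM in libraries 1, 2 and 3. Of the 19 genes, 18 differed among the libraries, against 54.3% of all genes tested, and Entpd1 did not pass the test (adjusted p = 0.358). The list includes the members themselves and was drawn up with earlier results of these data known. For this and the lists below, the share detected over all protein-coding genes was 45.9%.

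The signature genes did not share 1 order of libraries. By TMM-scaled counts without bins of length, 8 of the 19 were highest in library 1 and lowest in library 3, as Izumo1r was. These included Tnfrsf4, Ctla4 and Tigit. The opposite order, highest in library 3 and lowest in library 1, was that of Gpr83, Il2ra, Itgae, Lrrc32, Foxp3 and Entpd1, 6 genes in all. Among these, Entpd1 did not differ beyond counting error, nor did Gpr83 between libraries 1 and 2, so these places in the order are not established. The remaining 5 had other orders. Of the 18 that differed among the libraries, 10 were highest in library 1, 3 in library 2 and 5 in library 3. The shares of all 7099 genes that differed were 44.1%, 23.9% and 32.0%. The orders were not tested, nor was the part of gene length in them.

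**Figure D5:**
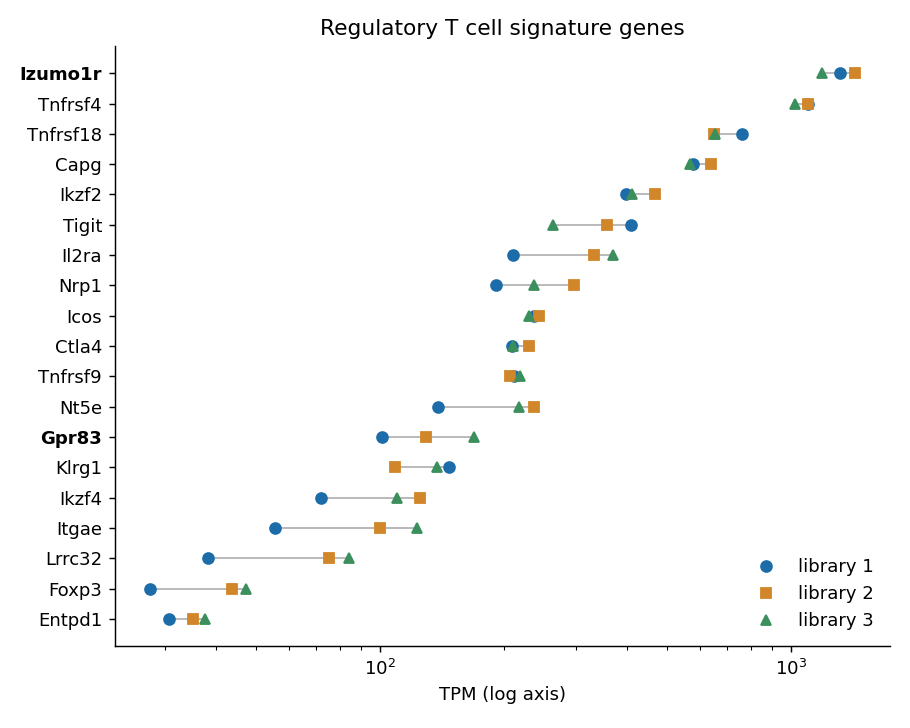
TPM of the 19 signature genes on a log axis, ordered by mean, with 1 point per library (circle, square and triangle for libraries 1, 2 and 3). Izumo1r is at the top at 1313 TPM and Gpr83 in place 13 at 134 TPM.

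The other listed genes of the folate receptor family, to which Izumo1r belongs by sequence, were not detected. RNA levels do not show if Izumo1r protein binds folate. Folr1, a folate receptor of epithelia, averaged 0.0533 TPM and Folr2, a folate receptor of myeloid cells, 0.283 TPM. Folate carriers were present, led by Slc19a1, the reduced folate carrier, at 33.1, 48.7 and 48.0 TPM in libraries 1, 2 and 3. The lysosomal transporter gene Slc46a3 averaged 16.9 ± 1.77 TPM, the mitochondrial folate carrier gene Slc25a32 5.90 ± 1.81 TPM and the proton-coupled folate transporter gene Slc46a1 1.91 ± 0.605 TPM (SD, n = 3 each). In this list of 7 genes, 5 were detected with Izumo1r included, and of the 5 tested, Izumo1r and Slc25a32 (adjusted p = 0.0234) differed among the libraries. Of 24 enzymes of folate and one-carbon metabolism, 19 were detected, against 45.9% of all protein-coding genes, at a median over the list of 21.3 TPM. The highest were Mat2b at 193 ± 6.80 TPM and Mat2a at 190.2 ± 35.6 TPM, subunits of methionine adenosyltransferase, and Mthfd2, a mitochondrial folate enzyme, at 95.5 ± 7.79 TPM. The lowest detected was Aldh1l1 at 2.90 ± 1.37 TPM (SD, n = 3 each), and Ftcd was at 0. Of 21 enzymes tested, 13 differed among the libraries, near the 54.3% of all genes tested.

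The sperm and egg genes listed for fertilisation, which are not all partners of Izumo1r, were mostly low or at 0. Of 13 sperm and egg genes found, 4 were detected, against 45.9% of all protein-coding genes, and the median of the 13 was 0.02 TPM. Izumo1, the sperm ligand, had 0.06 TPM in library 1 and 0 in libraries 2 and 3, while Izumo2, Izumo3, Tmem95, Zp1, Zp2 and Zp3 were at 0 in every library. The detected genes were Cd81 at 270.2 ± 20.2 TPM and Cd9 at 81.9 ± 8.49 TPM, tetraspanin genes also expressed in lymphocytes, Izumo4 at 85.8 ± 11.9 TPM and Spaca6 at 5.29 ± 0.743 TPM (SD, n = 3 each). Of 5 tested, 3 differed among the libraries, near the 54.3% of all genes tested. The genes that build and attach the GPI anchor, which Izumo1r protein needs to reach the membrane, were detected in 26 of 26 cases, at a median of 21.8 TPM. Dpm2 at 121 ± 9.06 TPM, Dpm3 at 100.5 ± 8.999 TPM and Dpm1 at 91.6 ± 14.4 TPM, which form the enzyme that supplies mannose, were highest, and Pigw at 2.66 ± 1.42 TPM was lowest (SD, n = 3 each). Of the 26 genes, 20 differed among the libraries, against 54.3% of all genes tested.

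On the side of Gpr83, the precursor of its reported ligand was not seen. Pcsk1n, which encodes proSAAS, was at 0 in every library. Fam237a and Fam237b, also in this list, were not matched, so no level was read for them. Of the 6 precursor and processing genes found, 3 were detected, near the 45.9% of all protein-coding genes. These were the protease gene Furin at 5.02 ± 1.34 TPM and the carboxypeptidase genes Cpd at 2.27 ± 1.06 TPM and Cpe at 1.95 ± 0.106 TPM (SD, n = 3 each). Of 4 tested, only Cpd differed among the libraries (adjusted p = 0.0226), against 54.3% of all genes tested. Of 12 related peptide and orphan receptor genes, Gpr171, a receptor gene of T cells, was the only one detected, at 36.2, 30.5 and 31.2 TPM in libraries 1, 2 and 3 (adjusted p = 3.2e-11). The receptor genes Npy1r, Npy2r, Npy4r, Npy5r, Npy6r, Tacr1, Tacr2, Tacr3, Prlhr and Npffr2 were at 0 in every library.

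Gpr83 has been reported to signal through Gq proteins, and 15 of 16 listed genes of that route were detected, at a median of 14.9 TPM. The kinase gene Grk2 at 63.1 ± 14.6 TPM and the arrestin gene Arrb2 at 57.8 ± 6.85 TPM, which act on activated receptors, and the calcium channel gene Itpr2 at 54.5 ± 11.7 TPM were highest. The lowest detected was Grk5 at 1.22 ± 0.162 TPM (SD, n = 3 each). Of 15 tested, 10 differed among the libraries, against 54.3% of all genes tested. Of these 10, 6 had their highest scaled count in library 2, as had 23.9% of all genes that differed.

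All 8 listed genes of the glucocorticoid response, the response in which Gpr83 was first found, were detected, at a median of 17.7 TPM. Tsc22d3, a glucocorticoid-induced leucine zipper gene, had 256, 289 and 484 TPM in libraries 1, 2 and 3 and, like Gpr83, was highest in library 3 (adjusted p = 8.7e-161). Nr3c1, the glucocorticoid receptor gene, averaged 77.4 ± 8.71 TPM, Zfp36l2 22.0 ± 1.35 TPM and Per1, the lowest, 4.11 ± 2.31 TPM (SD, n = 3 each). Of the 8 genes, 7 differed among the libraries, against 54.3% of all genes tested. Of these 7, 5 had their highest scaled count in library 3, as did 32.0% of all 7099 genes that differed. Of the rest, Zfp36l2 was highest in library 1 and Dusp1 in library 2. This list, like the others, was not tested as a set.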

How the data were processed

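Polyadenylated RNA of 3 libraries of mouse regulatory T cells was analysed as 1 group. Per the deposited readme, the authors' gene table gives expected counts and TPM per gene from an alignment to the transcriptome of mm10 with GENCODE M21, and a transcript table gives the percent of the gene's TPM for each transcript. A second deposited transcript table holds estimated counts and TPM from the reads and a transcript index, and the authors deposited whole-number counts per gene for GENCODE M4. The aligner, the quantifiers, the counter and the use of strand are named in no source used here.

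All 55536 mouse genes matched M21 by identifier. The 26345 other entries, at 0.117%, 0.124% and 0.135% of counts in libraries 1, 2 and 3, were left out. Expected counts were rounded, and libraries held 9299013, 9188579 and 8284324 counts. A chi-square test of homogeneity compared the counts of each gene with 30 or more counts with TMM-scaled totals (edgeR 4.0.16, R 4.3.3). The same test was run on the counts of adjacent pairs and, for transcripts with 10 or more counts, within genes, each adjusted by Benjamini-Hochberg and called at 0.05. With 1 group no edgeR contrast could be fitted. Intervals of ratios between libraries are exact 95% binomial ones. The tests were checked on counts simulated with Poisson error only, a check that does not cover reads amplified by PCR. Alternatives included DESeq2 1.42.0 size factors, library totals, bins of length, no filter, the other tables and leaving out each library. Calculations used scipy 1.17.1 in Python 3.11.15.

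The named genes are the members and their transcripts, the protein-coding genes within 250 kb and any other gene there at 1 TPM or more, the 3 nearest genes of each member by level, and in each list the 3 highest, the lowest detected and those at 0. Other genes are named for their role and were chosen after their values were seen. The members and lists were chosen with earlier results of these data known. Symbols Sof1, Pigy, Fam237a and Fam237b were not matched.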

Additional observations from a re-analysis of the deposited data

How the results depend on the processing

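Of the recomputed values, 74 kept their direction and side of the threshold, or moved by less than the spread between libraries, 8 moved, 2 lost their call and 0 reversed. The order of the libraries was not among these values, and it changed under bins of length. In the second transcript table the mean level was 775 TPM for Izumo1r and 64.2 TPM for Gpr83; there 1 transcript of another gene, Gm29013-201, took 26.1%, 19.1% and 19.6% of all TPM in libraries 1, 2 and 3. With protein-coding genes alone setting the TPM scale, a choice made after seeing the data, that table gave 1469 for Izumo1r and 121 for Gpr83, against 1546 and 157 in the gene table. The posterior mean TPM of Izumo1r was 1045. In M4 counts, Izumo1r had 1933 CPM, against 1106 CPM in expected counts, and the mean count ratio of Izumo1r to Gpr83 was 6.34, against 3.695. The share of Izumo1r-201 was 75.5% in the second transcript table. In a window of 500 kb, 11 other genes were detected, against 4 in 250 kb, as the wider window holds more genes. The cause of the other moves was not tested. Leaving out each library gave 2142 to 5980 genes that differed among libraries, the lowest without library 1, against 7099; a spread of Gpr83 of 1.02 to 1.40, with the call lost without library 3; and a chi-square per degree of freedom for the transcript composition of Izumo1r of 2.04 to 7.91, with the call lost without library 2. The spread of both members kept its call under every scaling, filter and table run, and the ratio kept its call in M4 counts. No paired analysis was possible because all libraries form 1 group. Gpr83, with 2421 to 3211 counts a library, has wider counting intervals than Izumo1r.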
